A study of Drosophila melanogaster with 12 samples.

Results

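The sites described here are the strongest binding sites of the Polycomb protein PSC in control S2 cells that had no peak in any list from mitotic cells. They were chosen by the score of each peak in PSC control replicate 1: the 4830 peaks were ranked from the highest score down, the highest 10% were taken as the strongest sites, and those that overlapped no peak of the 3 mitotic lists were selected. This gave 259 sites, called lost below. The other 224 strongest sites, which overlapped a mitotic peak by at least 1 bp, are called kept. Score in that list and absence from the mitotic lists are therefore the values that selected the sites, and are given only as a description.

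PSC and PH are subunits of Polycomb Repressive Complex 1, which keeps developmental genes such as the Hox genes silent through cell divisions. In Drosophila, Polycomb proteins gather at Polycomb response elements, stretches of regulatory DNA that recruit them to target genes. PSC can compact chromatin, and PH can form chains through its SAM domain. What happens to such binding during mitosis, when chromosomes condense and most transcription stops, is the question that the comparison of mitotic with control cells addresses.

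Binding was measured by ChIP-SEQ in S2 cells, a Drosophila line derived from embryos. PSC was precipitated with an antibody, with 2 replicates per condition, and PH through a biotin tag in an S2 line that expresses the tagged protein from a metallothionein promoter together with the biotin ligase BirA, with 1 sample per condition. Mitotic cells were arrested for 15 h in colchicine (880 nM, or 350 ng/ml) and sorted with an antibody to H3S10p, a histone mark of mitosis, whereas control cells were untreated, asynchronous and sorted with an antibody to H3. Cell cycle state, colchicine and the sorting antibody differ together between the conditions and cannot be told apart.

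The lists differed in size and in their lowest score. The control lists held 4830 peaks (PSC replicate 1), 3276 (PSC replicate 2) and 4629 (PH), and the mitotic lists held 578, 60 and 149. Scores started at 160.75 in the list of PSC control replicate 1 and at 165.56 in PH control, and between 50 and 72.85 in the other lists. The lists carry no read numbers, so the depth behind each value is unknown from them, and the absence of a peak means only that a site fell short of the calling threshold, which leaves weaker binding undetected. The 95% intervals given with shares are exact (Clopper-Pearson) and cover counting within one list only. No test was made between lost and kept sites, since sites of one list are not replicates.

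Among the strongest PSC sites, 259 had no mitotic peak (53.6%, 95% interval of 49.1 to 58.1%), against 88.2% of all 4830 peaks of the list. Score and mitotic overlap are the values that chose the sites, so this contrast is given as a description and nothing is read from it. The kept sites rested mostly on one library: 220 of the 224 overlapped a peak of PSC mitotic replicate 1, 78 a PH mitotic peak and 26 a peak of PSC mitotic replicate 2, and 142 were found in PSC mitotic replicate 1 alone. Without PSC mitotic replicate 1, 401 of the strongest sites (83.0%) had no mitotic peak. The scores of the kept sites in PSC mitotic replicate 1 ran from 50.26 to 3044.82 with a median of 163.13.

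The scores of the lost sites ran from 2042.02 to 3225.28, with a median of 2524.27, and those of the kept sites had a median of 3034.315. The score had a large tie. In PSC control replicate 1, 156 peaks shared the score of exactly 3100 and 28 lay above it. The order within the tie is only the order of the file. All of these 184 peaks were among the strongest, so the tie did not decide which sites were members. PH control had the same tie, with 207 peaks at 3100 that take ranks 25 to 231 in file order, and 24 above it. PH sites at the tie are therefore given by that score and not by rank. What the tied score stands for is not given, so whether tied peaks are weaker or stronger than those above it is not known. Ranks above the tie, in either list, are ranks by score only. Of the 156 tied sites 63 were lost (40.4%), and of the 28 above the tie 13 were lost (46.4%). Between 2500 and the tie the share was 57 of 115 (49.6%), and below 2500 it was 126 of 184 (68.5%). The last lost sites inside the limit ranked 480, 481 and 482, with scores of 2045.93, 2044.04 and 2042.02. Just outside it, rank 484 scored 2039.13 and had a mitotic peak, and ranks 485 and 486 scored 2038.95 and 2033.23 and had none.

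**Figure D1:**
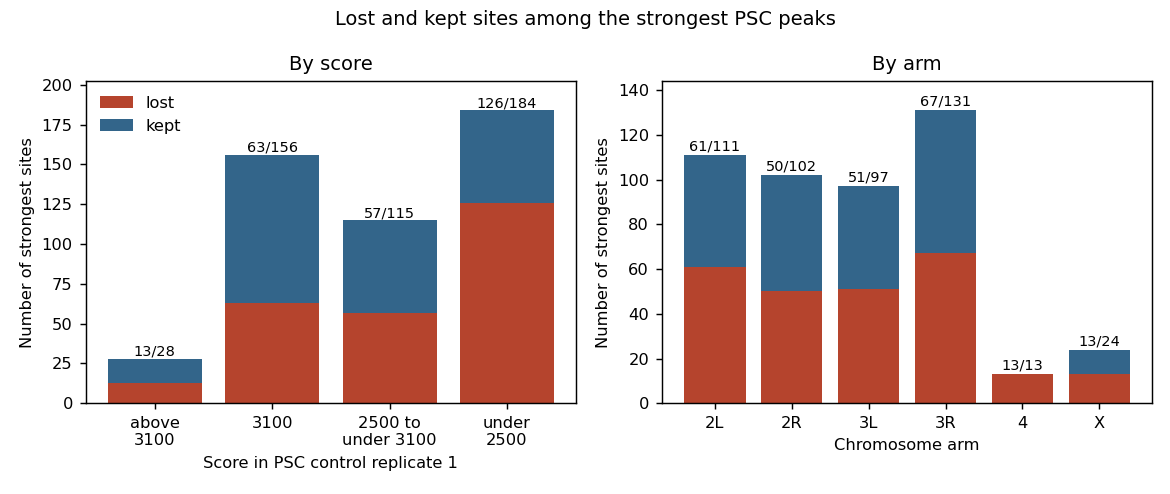
Number of strongest PSC sites that were lost (red) or kept (blue) in mitosis, by score in PSC control replicate 1 (left) and by chromosome arm (right), with lost and total numbers above the bars. All 13 strongest sites of chromosome 4 were lost, and the other arms held lost and kept sites.

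The lost sites were found again in the other control lists. A peak of PSC control replicate 2 overlapped 238 of the 259 (91.9%, 95% interval of 87.9 to 94.9%), against 62.9% of all peaks of the list, and a PH control peak overlapped 258 (99.6%, 97.9 to 100%), against 91.2% of all. For the kept sites the numbers were 219 and 224 of 224. The scores of replicate 2 have no tie of this kind, since none of its peaks had the tied score. The lost sites ranked from 23 to 3265 there, with a median rank of 655.5, and the kept sites ranked from 1 to 3186, with a median of 292. The ranges overlapped almost entirely. In the score itself, the median of replicate 2 was 185.21 for lost and 269.52 for kept sites.

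Sites that were strongest in replicate 1 were thus spread widely over the ranks of replicate 2. The highest 10% of replicate 2, its first 327 peaks, held 60 of the 259 lost sites (23.2%, 18.2 to 28.8%) and 116 of the 224 kept sites (51.8%, 45 to 58.5%), against 6.81% of all peaks of replicate 1. The highest 10% of PH control, its first 462 peaks, held 178 lost sites (68.7%, 62.7 to 74.3%) and 195 kept sites (87.1%, 81.9 to 91.2%), against 10.2% of all. Among the sites tied at 3100, which the score of replicate 1 does not order, the median rank in replicate 2 was 608 for the 59 lost sites with a peak there and 203 for the 92 kept ones. Of these tied sites, 16 of 63 lost and 59 of 93 kept sites were in the highest 10% of replicate 2, while in PH control 48 of the 63 and 78 of the 93 were themselves at the tied score, so their order there is not known. The comparison within the tie was chosen after the data had been seen.

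**Figure D2:**
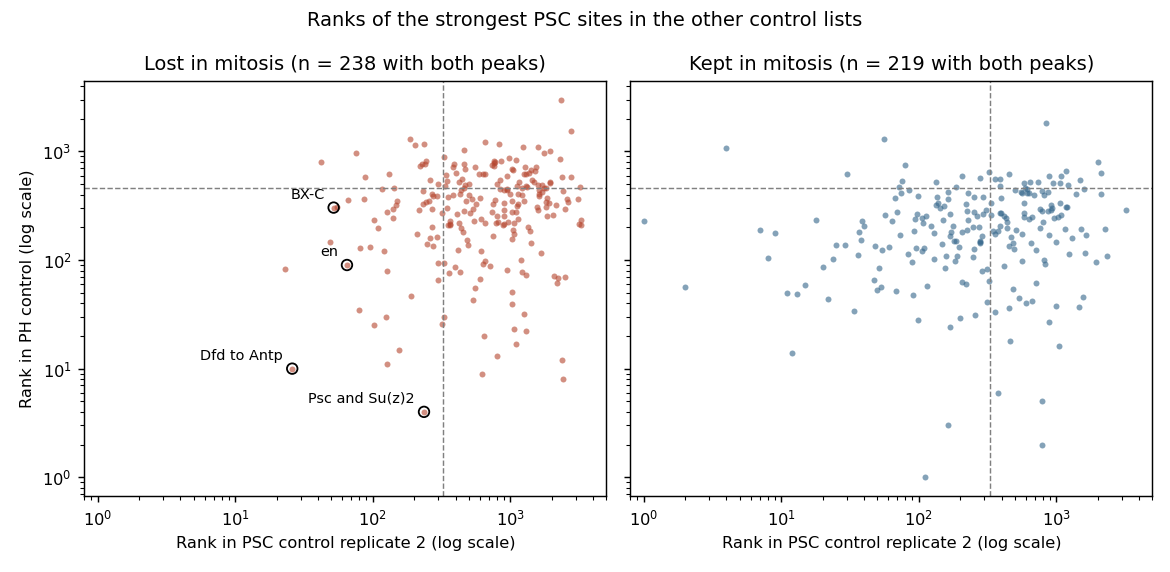
Rank of each strongest PSC site in PSC control replicate 2 (x axis) and in PH control (y axis), both on log scales with the highest scores at the lower left, for lost (left) and kept (right) sites with a peak in both lists. Dashed lines mark the highest 10% of each list, PH ranks 25 to 231 share a score of 3100 and follow file order, and circles mark the lost sites of 4 named loci, which all lie below and to the left of both lines.

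The highest 10% of both other control lists, and so of all 3, held 47 of the lost sites (18.1%, 13.6 to 23.4%). It held 105 of the kept ones (46.9%, 40.2 to 53.6%). Of all peaks of replicate 1, whatever their score there, 3.71% were in the highest 10% of both other control lists. These 47 sites lay on 2L (12), 2R (11), 3L (9) and 3R (15), with none on X or 4, and had a median length of 2716 bp. Their median distance to a mitotic peak was 50473 bp. Strong binding in every control list therefore occurred at sites without a mitotic peak on each of the large autosomal arms. Between replicate 2 and PH control, scores were related with a Spearman's rho of 0.12 over the 238 lost sites with both peaks, which share the libraries and are not independent, in a range already limited to the strongest sites.

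Known Polycomb target loci were among the lost sites. The windows were read from tracks that the study drew for these loci from the same experiment, so their loss was known beforehand, and the edges at BX-C and at Dfd to Antp were set with gene positions recalled from general knowledge. In the BX-C, the Hox cluster with Ubx, abd-A and Abd-B, 1 of 16 control peaks was among the strongest, on 3R of dm3 from 12623722 to 12625383. It scored 2418.13 (rank 326) in PSC control replicate 1, 485.98 (rank 52) in replicate 2 and 2775.73 (rank 304) in PH control. The nearest mitotic peak lay 202150 bp away. It was one of the shorter sites, at 1662 bp, and the other 15 control peaks of the window were below the highest 10%. These 15 had no mitotic peak either.

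At en, which encodes the homeodomain protein Engrailed, the single control peak was a lost site, on 2R from 7414959 to 7417869. It scored 2606.18 (rank 263) in replicate 1, 469.25 (rank 65) in replicate 2 and 3100, the tied score, in PH control. It stood alone, with no other control peak within 50 kb and the nearest mitotic peak at 74156 bp. Between Dfd and Antp, Hox genes of the Antennapedia complex, 1 of 11 control peaks was a lost strongest site, on 3R from 2737336 to 2739501. Its score was 2371.2 (rank 336) in replicate 1, 566.81 (rank 26) in replicate 2 and 3159.63 (rank 10) in PH control, with the nearest mitotic peak at 151368 bp.

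The gene of PSC itself lies beside its paralogue Su(z)2. Of the 18 control peaks in that window, 1 was a lost strongest site and 3 were kept strongest sites. The lost one, on 2R from 8877608 to 8880205, scored 2203.06 (rank 406) in replicate 1, 295.79 (rank 236) in replicate 2 and 3204.45 (rank 4) in PH control. The PH control scores of this site and of the Dfd to Antp site lay above the tie. Their PH ranks therefore do not show stronger binding than at the tied PH peaks. Each of the 4 lost sites in these loci ranked higher in replicate 2 than in replicate 1. All 4 belonged to the 47 sites in the highest 10% of every control list. In the fifth window, from Mgat to insc on 2R, none of 14 control peaks was a lost strongest site and 2 were kept strongest sites. Whatever their score, 16 of 16 control peaks of the BX-C window had no mitotic peak, and 11 of 11 from Dfd to Antp. The numbers were 1 of 1 at en, 14 of 18 at Psc and Su(z)2 and 8 of 14 from Mgat to insc. The share over all peaks of the list was 88.2%.

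**Figure D3:**
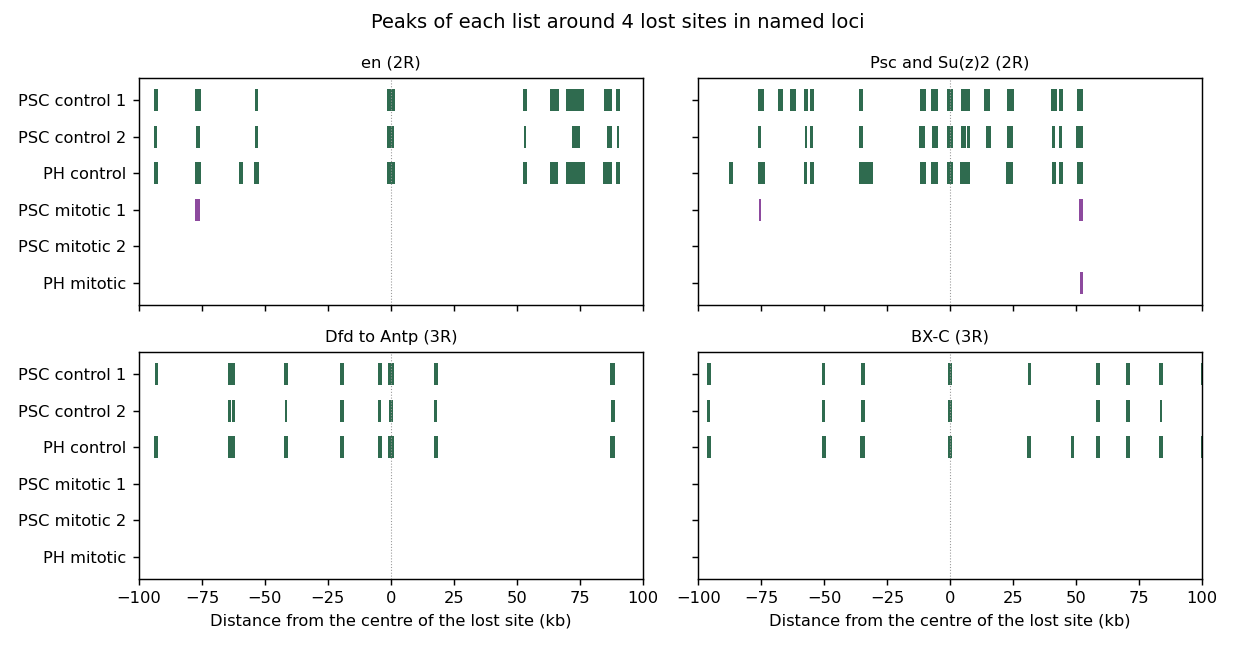
Peaks of the 6 lists around the lost site of each of 4 loci, as distance in kb from the centre of that site, with control lists in green and mitotic lists in purple. Each of the 3 control lists has a peak at 0, no mitotic list does, and mitotic peaks appear within 100 kb only at en and at Psc and Su(z)2.

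The 10 highest-scoring lost sites of replicate 1 varied in rank in the other control lists. All 10 lay above the tied score, so whether they bound more strongly than the tied lost sites is not known. The highest-scoring lost site, on 3R from 11923020 to 11926468, scored 3225.28 (rank 3), ranked 210 in replicate 2 and was at the tied score in PH control. The next, on 2R from 13306543 to 13310921, scored 3217.38 and ranked 796 in replicate 2 but 13 in PH control, by a score above the tie there. The third by rank, on 3L from 13478719 to 13480634, scored 3217.26 and ranked 217 and 290. On 2L, the highest lost site, from 15744589 to 15749141, scored 3160.02 and ranked 2746 in replicate 2 with a score of 63.05. These 10 sites ranked between 210 and 2746 in replicate 2, and the PH control ranks of those outside the tie ran from 13 to 687.

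The order of replicate 2 brought other sites forward. Its highest-ranked lost sites, named after their values had been seen, were on 2R from 4518690 to 4520927 (rank 23, score 590.61), the Dfd to Antp site, and on 3R from 12030330 to 12035008 (rank 42, score 514.71). Next came a site on 3L from 17467297 to 17469975 (rank 49, score 491.75) and the BX-C site. The site on 3R at 12030330 had ranked only 475 in replicate 1. At the other end, the 5 lowest-ranked lost sites ranked from 3098 to 3265 in replicate 2, with scores there from 50.28 to 53.97. Of these, 1 lay on 2L, 2 on 3R and 2 on chromosome 4, and 2 of the 5, both on chromosome 4, were at the tied score in PH control.

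No peak of replicate 2 overlapped 21 of the lost sites. They were spread over 2L (4), 2R (3), 3L (3), 3R (4), 4 (4) and X (2), with 1 more on a heterochromatic scaffold, and 20 of the 21 had a PH control peak. In PH control, 12 of the 20 were at the tied score of 3100, and the lowest scored 1356.63. The remaining one, on 2L from 5023024 to 5030964, had a score of 2283.5, a length of 7941 bp and no peak in either of the other control lists. It was the only lost site without a PH control peak.

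The strongest sites, lost and kept, were long peaks. The length of the lost sites ran from 1584 to 70123 bp with a median of 3354 bp. The median was 3107 bp for the kept sites and 1708 bp for all peaks of the list. The 95% intervals of the lost and kept medians, taken from the ranked lengths, were 3091 to 3603 bp and 2862 to 3428 bp. They cover counting over sites of one list and are no test between the groups. Score in replicate 1, which chose the sites, had a Spearman's rho of 0.40 with length over the 259 lost sites. The contrast with all peaks is therefore given as a description. Length had a Spearman's rho of -0.16 with the score in replicate 2 (n = 238 sites, which share the libraries). Peaks of 5 kb or more made up 55 of the lost sites (21.2%, 16.4 to 26.7%) and 36 of the kept ones (16.1%, 11.5 to 21.5%), against 3.13% of all peaks. Among the strongest sites, 25 of 65 under 2000 bp were lost (38.5%, 26.7 to 51.4%), 86 of 150 from 2000 bp (57.3%, 49 to 65.4%), 93 of 177 from 3000 bp (52.5%, 44.9 to 60.1%) and 55 of 91 of 5000 bp or more (60.4%, 49.6 to 70.5%), so the share did not follow length step by step. When PSC control replicate 2 was ranked in place of replicate 1, the median length of the lost sites was 1641 bp, in a list whose peaks are shorter (median of 1178 bp).

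The longest lost sites differed widely in rank between the other lists. A peak of 70123 bp on 3L, from 3392431 to 3462553, was at the tied score of 3100, with a score of 74.81 (rank 2351) in replicate 2 and 522.36 (rank 2982) in PH control. A peak of replicate 2 covered 83.2% of its length and PH control peaks covered 99.7%. A peak of 58598 bp on 3L, from 603480 to 662077, also at 3100, had no peak in replicate 2, while 2 PH control peaks, the better one at the tied score, covered 99.1% of it. A peak of 21847 bp on 2L, from 13065742 to 13087588, scored 2232.04 and had none in replicate 2 and a PH control peak over 70.2%. The next longest, on 3R, measured 14273 bp (from 5901737) and 12110 bp (from 25075529), and ranked 752 and 268 in replicate 2. Of the 8 lost sites of 10 kb or more, 3 had no peak in replicate 2. Across 258 lost sites, length in PSC control replicate 1 and length of the PH control peak had a Spearman's rho of 0.85.

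**Figure D4:**
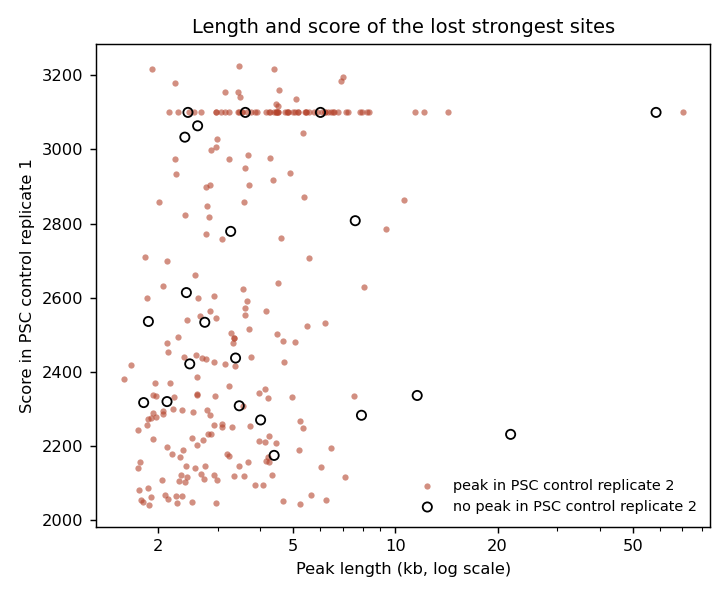
Length of each of the 259 lost sites in kb (log scale) against its score in PSC control replicate 1, with open circles for the 21 sites that had no peak in PSC control replicate 2. The row of points at 3100 is the tied score, and the peaks of 58.6 and 70.1 kb stand apart at its right end.

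Most lost sites had another control peak close by. Another control peak lay within 10 kb of 201 of the 259 (77.6%, 72 to 82.5%), against 76.4% of all peaks of the list and 169 of 224 kept sites (75.4%), so the share is close to that of the whole list. The nearest control peak was at a median distance of 4031 bp for lost and 4000 bp for kept sites. Within 50 kb, lost sites had a median of 5 other control peaks, from 0 to 16. The most crowded site, on 2L from 10385453 to 10389016, had 16, and 7 sites had none. With PSC control replicate 2 ranked instead, 48.5% of the lost sites had another peak of that list within 10 kb. That list is shorter (3276 peaks), and the share over all its peaks is not given, so the values are not comparable.

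The nearest control peak of a lost site mostly had no mitotic peak either. This was so for 231 of the 259 (89.2%), close to the 88.2% of all peaks given above, and it had one for 28 (10.8%, 7.3 to 15.2%). For kept sites, the nearest control peak had a mitotic peak at 23 of 224 (10.3%, 6.62 to 15%). Within 50 kb, 91 lost sites had another lost strongest site (35.1%, 29.3 to 41.3%), against 24.0% of all peaks of the list, and 61 had a kept one (23.6%, 18.5 to 29.2%), against 22.9% of all. Of the kept sites, 63 had a lost strongest site within that distance (28.1%) and 60 another kept one (26.8%).

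Lost sites lay on every arm. The 61 lost sites of 2L were 55.0% of its 111 strongest sites. The share was 49.0% on 2R (50 lost, 52 kept), 52.6% on 3L (51 lost, 46 kept) and 51.1% on 3R (67 lost, 64 kept). The X chromosome had 13 lost and 11 kept sites (54.2%, 32.8 to 74.4%). Over all control peaks of each arm, the share without a mitotic peak was 87.2% on 2L, 87.3% on 2R and 88.2% on 3L. It was 87.6% on 3R and 90.9% on X. The X chromosome had few strong sites, since 24 of its 696 control peaks (3.45%) were among the strongest, against 9.91 to 12.3% on 2L, 2R, 3L and 3R. Without PSC mitotic replicate 1, the share lost was 81.1% on 2L, 87.3% on 2R, 84.5% on 3L, 78.6% on 3R and 79.2% on X. With replicate 2 ranked, 2 of 8 strongest X sites were lost (25.0%). The heterochromatic scaffolds held the other 4 lost sites, 1 on 2LHet, 2 on 2RHet and 1 on 3RHet.

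Chromosome 4, a small chromosome that is largely heterochromatic, held 13 strongest sites among its 51 control peaks (25.5%), and all 13 were lost (95% interval of 75.3 to 100%). No mitotic list had a peak on this chromosome. The 13 sites scored from 2309.06 to 3100, with 6 at the tie, and measured 2284 to 5408 bp. All 13 were in the highest 10% of PH control, where 12 PH peaks overlapped them, and 11 of the 13 were at the tied PH score of 3100. In replicate 2, 9 had a peak, at ranks 353 to 3262, and none was in the highest 10%. The first, from 87057 to 90912, ranked 353 there, and the site from 149213 to 153724 ranked 3262. Both were at the tied score in PH control.

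The distance from a lost site to the nearest mitotic peak had a median of 63499 bp and ran from 605 to 2881691 bp over the 245 sites with a mitotic peak on their chromosome. The other 14 lay on chromosome 4 and 2LHet. Over all control peaks without a mitotic peak the median was 62558 bp (n = 4206). A mitotic peak lay within 1 kb of 3 lost sites (1.16%), within 10 kb of 32 (12.4%) and within 100 kb of 153 (59.1%). Over all 4261 control peaks without a mitotic peak the shares were close to these, at 1.08%, 13.8% and 62.3%. The nearest mitotic peak belonged to PSC mitotic replicate 1 for 233 sites, and without that list the median distance was 283231 bp.

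The lost sites nearest to a mitotic peak were a 5736 bp peak on 3L from 2582455 to 2588190, at 605 bp, one on 2L from 864840 to 869062, at 816 bp, and one on 3L from 14023796 to 14025934, at 819 bp. The next were on 2R from 14043647 to 14046403, at 1016 bp, and on 3L from 4540338 to 4550956, at 1595 bp. The mitotic peaks beside these 5 sites were all of PSC mitotic replicate 1, with scores from 57.29 to 206.72. At these places a strong control peak had no mitotic peak, and a peak was called a short way along the chromosome. On 2L that mitotic peak overlapped an adjoining kept site, from 869308 to 872524. Beside the 3L site from 4540338 it also overlapped a kept site, from 4551063 to 4555227.

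The farthest lost sites lay near the ends of arms. The distance exceeded 500 kb at 18 sites (6.95%), against 3.97% of all control peaks without a mitotic peak. Of these, 13 were on the side of their arm next to the centromere, 5 on 2L from 22129192, 3 on 2R up to 717479, 4 on 3L from 22815048 and 1 on 3R at 57405. Another 4 lay at the far end of 2R, from 20897864 to 21079022, and 1 on 2RHet. The farthest was on 3L from 24528462 to 24531302, at 2881691 bp, with a score of 2903.07, rank 1027 in replicate 2 and the tied score in PH control. The next, on 3L from 23329901 to 23333280, lay at 1683130 bp and had no peak in replicate 2.

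Stretches without a mitotic peak held several lost sites at a time in some places. On the arms, 155 of 583 stretches between mitotic peaks or arm ends held a lost site, and 100 of these held 1. In 5 stretches there were 5 or more, together 40 sites. They were the whole of chromosome 4 with 13 among 51 control peaks, the start of 2R up to 2038171 with 9 among 52, and the end of 2L from 21397941 with 7 among 27. The others were the end of 2R from 20225789 with 6 among 47, and a stretch of 755200 bp on 3R from 1486742 to 2241941 with 5 among 30. Only the last lay between mitotic peaks on both sides.

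**Figure D5:**
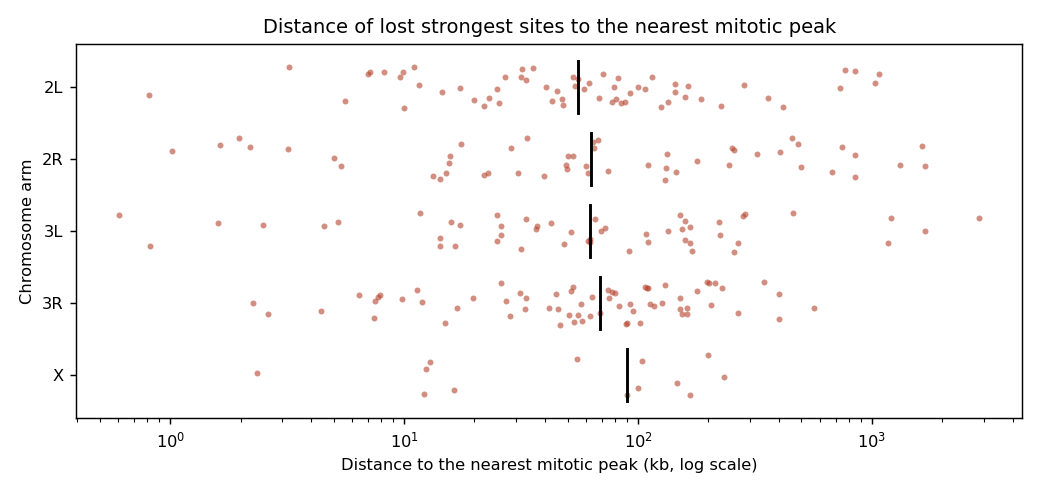
Distance in kb (log scale) from each lost site on 2L, 2R, 3L, 3R and X to the nearest peak of any mitotic list, with black bars at the median of each arm. Medians run from 55157 bp on 2L to 89609 bp on X, and the sites beyond 1000 kb are on 2L, 2R and 3L.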

How the data were processed

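ChIP-SEQ peak lists of 6 samples were used, 4 of PSC and 2 of PH. Inputs were left out. The authors aligned reads to dm3 and kept uniquely mapping reads (Bowtie 1.1.2 and MACS 1.0.1 per the submitters' processing notes), called peaks in each sample separately, and filtered all lists but mitotic PH on false discovery rate. The deposited score of each peak is the authors' value, read as the MACS score from its lowest values. Ranks follow this score within a list, with ties in file order.

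Overlaps of at least 1 bp, distances between peak edges and neighbours were computed with Python 3.11.15, pandas 2.3.3 and scipy 1.17.1, tested on simulated data and checked against bedtools 2.31.1 (the same 259 sites). Where several peaks overlapped a site, the best-ranked one gave its value. Sites were named by a rule: highest score, longest, most crowded, nearest, farthest, weakest in other lists, locus windows and both sides of the limit. Members and lists were chosen with earlier results of these data known. Coordinates are 1-based. No dm3 annotation or genome was used, so genes and sequences are not given.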

Additional observations from a re-analysis of the deposited data

How the results depend on the processing

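No paired analysis was possible because the results come from no test. With the highest 5% of peaks in place of 10%, 43.8% of strongest sites were lost (41.9% on 2L, 35.0% on 3R), 100% of them had a PH control peak, their median length was 4387.5 bp and 71.7% had another control peak within 10 kb. With the highest 20%, 61.0% were lost, with a median length of 2819 bp. At a score of at least 100 in the mitotic and compared control lists, 66.9% were lost (69.4% on 2L, 61.8% on 2R, 67.0% on 3L, 65.6% on 3R), 82.0% of them had a peak in PSC control replicate 2, and the median distance to a mitotic peak was 123891 bp. As a description, same-numbered lists alone gave 54.5% lost for replicate 1 and 89.9% for replicate 2. Another control peak lay within 5 kb of 58.3% and within 50 kb of 97.3% of lost sites. With each mitotic list or PSC control replicate 1 left out, the share lost ranged from 49.8 to 83.0%, the share found in the other PSC control list from 91.9 to 100%, the share with a PH control peak from 99.6 to 100%, the median length from 1641 to 3356.5 bp, the share with a neighbour from 48.5 to 77.9% and the median distance from 61957 to 283231 bp. By arm the share lost ranged from 46.8 to 81.1% on 2L, 49.0 to 87.3% on 2R, 43.8 to 84.5% on 3L, 51.1 to 78.6% on 3R and 25.0 to 79.2% on X, and was 100% on 4. With PH control ranked, chosen after the data were seen, 67.8% had a neighbour in that list, for which the share over all peaks is not given. The cause of these shifts was not tested. An overlap of 50% of the shorter peak, or peaks within 500 bp, left each of these values within its 95% interval. Sequence content was not run. Depth is unknown from the lists and limits what a missing peak can mean.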

Other observations

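Ranking PH control instead of PSC control replicate 1, an alternative chosen after the data were seen, gave 462 strongest PH sites, of which 233 (50.4%, exact 95% interval of 45.8 to 55.1%) overlapped no mitotic peak. The share over all PH control peaks is not given. On chromosome 4 these were 18 of 18, which follows from the absence of any mitotic peak on that chromosome. A peak of PSC control replicate 2 overlapped 213 of the 233 (91.4%), their median length was 3257 bp, and their median distance to a mitotic peak was 69726 bp.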
